A study of Mus musculus with 4 samples.

Results

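The genes described here encode the T cell receptor complex and the first enzymes and adaptors that carry its signal: the CD3 chains Cd3d, Cd3e and Cd3g, the zeta chain Cd247, the coreceptor Cd4, the kinases Lck and Zap70, and the adaptors Lat and Lcp2 (SLP-76). They were chosen by gene symbol, and all 9 were found among the 37583 features of the deposited tables. The cells were naive CD4+ T cells, sorted from spleens of C57BL/6 mice and stimulated for 24 h with plate-bound antibodies to CD3 and CD28 in a culture the labels call aTh17. That culture held IL-1β (10 ng/ml), IL-6 (10 ng/ml), IL-23 (20 ng/ml) and antibodies to IL-4 and IFN-γ (10 µg/ml of each), and all 4 groups shared it. One group received DMAT at 1.5 µM and one received CX4945 at 1 µM, both inhibitors of the protein kinase CK2, and the titles give each inhibitor a control without it. Each group was 1 library of RNA sequencing, so no group has a replicate of its own, and each p-value or spread describes single libraries whose differences can be technical. The labels do not say how many mice gave each library, whether the experiments used separate mice, or what vehicle the controls received.

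The T cell receptor has short tails that cannot signal by themselves. Its CD3 and zeta chains carry the tyrosine motifs that Lck, held near the receptor by CD4, phosphorylates after engagement. Zap70 docks on those motifs and phosphorylates the adaptors LAT and SLP-76, which gather phospholipase C gamma and Vav1 and so open the calcium, Ras and NF-kB branches. Plate-bound antibody to CD3 engages the same complex directly.

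The libraries held 2056635 to 2772525 exon reads each, and 9331 to 9661 features had at least 10 reads. The 9 genes were well covered for that depth, with 170 to 1134 reads per gene and library and 4680 to 5221 in sum. The defining markers of the labelled cells were present: Cd3d, Cd3e, Cd3g, Cd247 and Cd4 together had 1711 to 2051 reads, while Cd8a and Cd8b1 together had 6 to 10. Of 32 markers of 8 other cell types, 28 were in the tables. Of these 28, 16 were at 0 in every library, and the 28 together had 13 to 24 reads. Only 1 of the 4 gamma delta T cell markers was in the tables, so that type was scarcely assessed. In RNA from a whole culture, fewer cells of a type and less RNA per cell cannot be told apart.

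None of the 9 genes of the complex and proximal cascade differed 2-fold with either inhibitor. In the joint test over both inhibitors 0 of 9 passed (edgeR adjusted p under 0.05), against 0.530% of 9629 genes. That test fits a shared change for both inhibitors. Opposite changes offset each other in it, and a change with a single inhibitor is diluted. Ratios are ratios of CPM, counts scaled to library size with TMM factors, and log2 values use a prior count of 2. Intervals are exact 95% intervals that cover counting error only. At least 20 reads in a pair of libraries were required, and all 9 genes passed that limit. With DMAT 0 of 9 were 2-fold higher or lower, against 2.43% of 9649 genes (1.08% higher and 1.35% lower). With CX4945 it was also 0 of 9, against 1.74% of 9358 genes (0.823% higher and 0.919% lower). The log2 ratios of the 9 ran from -0.27 to 0.57 with DMAT (median 0.03) and from -0.07 to 0.32 with CX4945 (median 0.17), while the medians over all genes were 0.00 in both. Between the control libraries the 9 ran from -0.23 to 0.64 (control for CX4945 over control for DMAT), a wider range than with either inhibitor, again with 0 of 9 at 2-fold, against 2.32% of 9564 genes (0.983% higher and 1.34% lower). By sign, 3 of 9 were higher with both inhibitors, against 25.9% of 9262 genes. Lower with both were 2, against 26.7%, and 4 went opposite ways. Lat is counted as lower with both, at a log2 ratio of only -0.003 with CX4945.

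**Figure D1:**
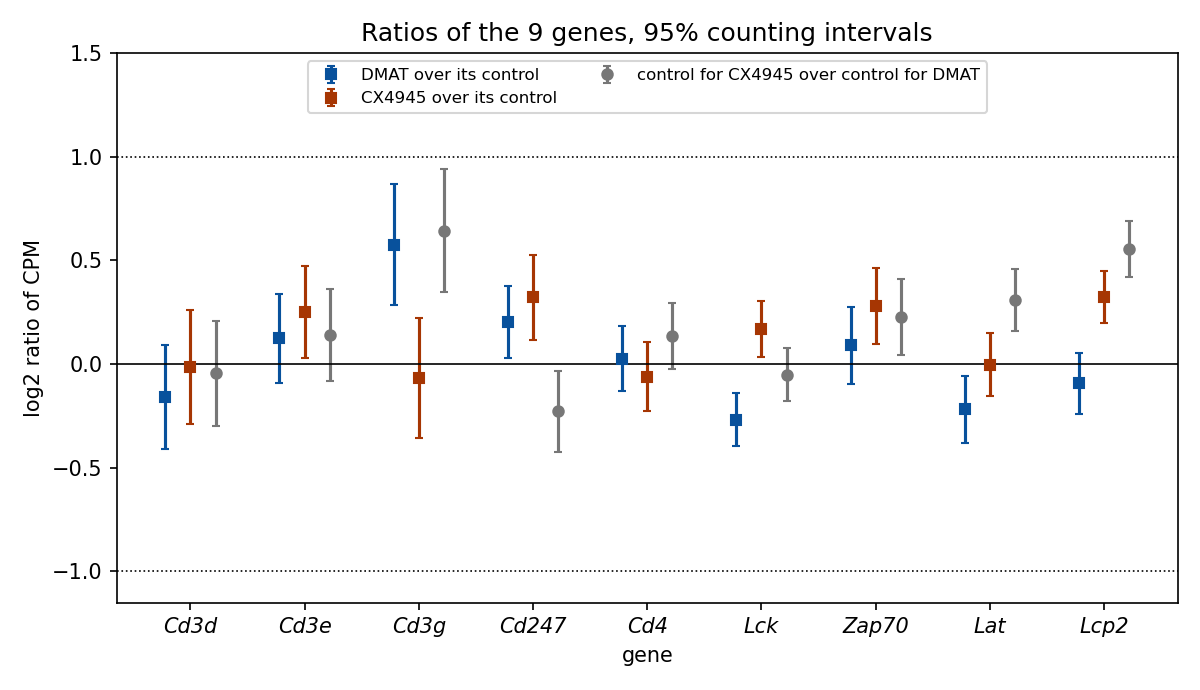
Log2 ratio of CPM (y axis) for each of the 9 genes (x axis): DMAT over its control, CX4945 over its control and, in grey, the control for CX4945 over the control for DMAT. Bars are exact 95% counting intervals for 1 library per group and dotted lines mark 2-fold; no gene reaches 2-fold, and Cd3g and Lcp2 differ most between the controls.

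The CD3 genes sit together on chromosome 9 in mm9, the build of the files: Cd3g at 44777655 to 44788514, Cd3d at 44789876 to 44795135 and Cd3e at 44806826 to 44817673. Cd3g and Cd3d are transcribed away from each other, and 1361 bases separate the 2 features. Cd247, which encodes the zeta chain, lies on chromosome 1 at 167718812 to 167807407. The 250 bases before the start sites of these 4 genes are shown because the chains are assembled into one complex. Whether these sequences bear on the transcript levels described below was not tested. They are RefSeq windows of build GRCm38.p6, 5′ to 3′ on the gene's strand. Capitals mark the letters AGGAAGT or their reverse complement ACTTCCT, an ETS-type core, searched on both strands and chosen after the sequences had been read.
Cd3g, chr9:44980432-44980681, minus strand: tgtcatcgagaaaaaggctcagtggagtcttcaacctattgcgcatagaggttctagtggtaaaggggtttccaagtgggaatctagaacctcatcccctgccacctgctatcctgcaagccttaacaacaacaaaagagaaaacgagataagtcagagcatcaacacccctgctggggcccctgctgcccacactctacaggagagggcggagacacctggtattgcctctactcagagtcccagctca
Cd3d, chr9:44981536-44981785, plus strand: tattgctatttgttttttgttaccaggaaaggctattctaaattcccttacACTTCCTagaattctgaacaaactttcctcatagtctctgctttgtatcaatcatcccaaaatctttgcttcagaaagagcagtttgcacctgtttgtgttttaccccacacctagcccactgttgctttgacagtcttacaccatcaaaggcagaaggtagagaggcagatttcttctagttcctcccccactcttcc
Cd3e, chr9:45009612-45009861, minus strand: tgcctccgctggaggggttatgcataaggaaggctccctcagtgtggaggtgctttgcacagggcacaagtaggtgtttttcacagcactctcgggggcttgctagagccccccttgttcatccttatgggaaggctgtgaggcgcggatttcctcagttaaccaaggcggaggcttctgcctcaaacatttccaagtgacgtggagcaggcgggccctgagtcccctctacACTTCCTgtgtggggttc
Cd247, chr1:165788431-165788680, plus strand: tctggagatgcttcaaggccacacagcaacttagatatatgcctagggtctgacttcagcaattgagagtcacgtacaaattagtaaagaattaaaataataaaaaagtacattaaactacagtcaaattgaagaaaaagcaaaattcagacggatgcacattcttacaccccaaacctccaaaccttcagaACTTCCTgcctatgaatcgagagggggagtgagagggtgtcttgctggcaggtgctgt

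Of the 9 genes 8 had at least 1 such window, 11 windows in all. The ETS-type core was in 5 of these windows, those of Cd3d, Cd3e and Cd247 and both of Lck, and in 7.7% of 32851 windows of the same length. A RUNX-type core, TGTGGT or its reverse complement ACCACA, was in 2 of the 11 (1 of Lck and 1 of Zap70) and in 14.0% of all windows. The E-box letters CAGNTG or CANCTG were in 8 of the 11 and in 44.8% of all. These are counts of letters in a window and no binding was measured. The ETS-type letters were chosen after these sequences had been read, so their count here cannot test for an excess.

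Cd3g, the gamma chain of CD3, had the largest ratio of the 9. Its CPM was 61.6 in the control for DMAT, 91.7 with DMAT, 96.2 in the control for CX4945 and 91.8 with CX4945. The control for DMAT stood below the other 3 libraries. DMAT was thus 1.49-fold over its own control (interval 1.22 to 1.83), but its log2 ratio was -0.069 against the control for CX4945. With CX4945 the log2 ratio over its own control was -0.07 (ratio interval 0.781 to 1.16), and the controls differed by 0.64. In the joint test Cd3g did not pass (log2 fold change 0.25 ± 0.15 SE, edgeR quasi-likelihood, Benjamini-Hochberg adjusted p = 0.809).

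The neighbouring Cd3d, the delta chain, had 107 CPM in the control for DMAT, 95.6 with DMAT, 104 in the control for CX4945 and 103 with CX4945. Its spread over the 4 libraries was the smallest among the CD3 chains, and both intervals held 1. Both inhibitor libraries lay below both controls, which was so for 1 of the 9 genes and for 15.5% of 9629 genes, but by less than counting error. Because the 2 genes were counted in the same libraries, their ratio does not depend on scaling. There were 0.576 Cd3g reads per Cd3d read in the control for DMAT (interval 0.474 to 0.698), 0.959 with DMAT (0.798 to 1.15), 0.928 in the control for CX4945 (0.769 to 1.12) and 0.895 with CX4945 (0.731 to 1.1). The interval of the control for DMAT lay below those of the other 3 libraries.

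**Figure D2:**
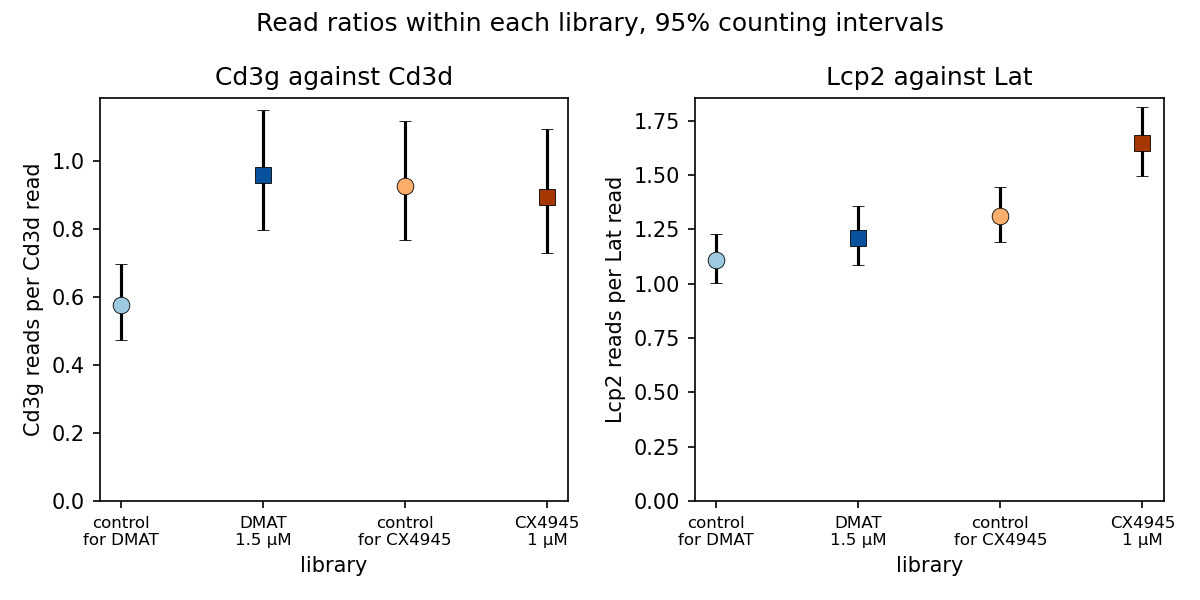
Reads of Cd3g per read of Cd3d (left) and of Lcp2 per read of Lat (right) within each library, y axes from 0, with exact 95% counting intervals. The control for DMAT is low in Cd3g, at 0.576, and the CX4945 library is high in Lcp2, at 1.65.

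Cd3e, the epsilon chain, was at 129 CPM in the control for DMAT, 141 with DMAT, 143 in the control for CX4945 and 169 with CX4945. The DMAT library lay between the 2 controls. With CX4945 the ratio was 1.19 (1.02 to 1.39) and with DMAT 1.09 (0.938 to 1.27). The joint log2 fold change of 0.19 ± 0.11 (SE) did not pass (edgeR adjusted p = 0.793).

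Cd247 was the one gene whose counting interval lay above 1 with both inhibitors, which 1.12% of 9262 genes did, and 2.14% of the 2993 genes with at least as many reads as the lowest of the 9. None of the 9 lay below 1 with both, against 1.68% of all genes and 3.07% of those as well covered. The CPM of Cd247 was 192 in the control for DMAT, 221 with DMAT, 164 in the control for CX4945 and 205 with CX4945. Both inhibitor libraries stood above both controls, which was so for 14.2% of 9629 genes and for 1 of the 9. The ratios were 1.15 (1.02 to 1.3) with DMAT and 1.25 (1.09 to 1.44) with CX4945. Over the control for DMAT, the CX4945 library had a log2 ratio of 0.095 (-0.093 to 0.28), which held no change. The joint log2 fold change was 0.26 ± 0.10 (SE) with an unadjusted p of 0.0179, and it did not pass after adjustment over all genes (edgeR, adjusted p = 0.50). Of the Cd247 reads 79.9% were unique, and with unique reads the log2 ratios were 0.22 and 0.37. Its feature overlaps those of Gm16565 and Pou2f1, which had at most 23 and 38 reads in a library, and whether strand was used in counting is not stated, so reads of overlapping features cannot be told apart.

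Summed over the 4 chains, reads were 1.12-fold over control with DMAT (1.04 to 1.21) and 1.12-fold with CX4945 (1.03 to 1.22), and 1.03-fold between the controls (0.955 to 1.12). Cd3d alone had a DMAT ratio under 1 among the 4, at 0.895. With CX4945 Cd3d (0.990) and Cd3g (0.954) were under 1. Between the controls Cd3g was at 1.56 (1.27 to 1.92) and Cd247 at 0.854 (0.746 to 0.977), so the sum hides opposite differences.

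Cd4, the coreceptor that brings Lck to the complex, varied least of the 9 relative to its level. It lies on chromosome 6 at 124814710 to 124838239 (mm9) and was at 253 CPM in the control for DMAT, 258 with DMAT, 278 in the control for CX4945 and 267 with CX4945. Both inhibitor libraries lay between the controls. Its intervals were 0.914 to 1.13 with DMAT and 0.854 to 1.08 with CX4945, and both held 1.

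Of the kinases, Lck was lower with DMAT and Zap70 was not. Lck, the Src-family kinase that phosphorylates the CD3 chains (chromosome 4, 129225588 to 129250885, mm9), was at 411 CPM in the control for DMAT, 341 with DMAT, 397 in the control for CX4945 and 446 with CX4945. DMAT gave the lowest of the 4 values and CX4945 the highest. The ratio was 0.831 with DMAT (0.76 to 0.908) and 1.12 with CX4945 (1.02 to 1.23), while the controls had a log2 difference of -0.05. The inhibitors were given at unequal doses and against separate controls, and the contrast between them was not tested. Over the control for DMAT, Lck with CX4945 had a log2 ratio of 0.12 (-0.009 to 0.25), which held no change. Zap70, the kinase that docks on the phosphorylated chains (chromosome 1, 36818695 to 36839663), was at 178 CPM in the control for DMAT, 189 with DMAT, 208 in the control for CX4945 and 252 with CX4945. It was 1.21-fold over control with CX4945 (1.07 to 1.38) and 1.06-fold with DMAT (0.937 to 1.21), and the controls also differed, by log2 0.23. In the joint test neither passed (edgeR adjusted p = 0.964 for Lck and 0.752 for Zap70). The log2 fold changes were -0.05 ± 0.10 for Lck and 0.18 ± 0.10 for Zap70 (SE). For Lck the opposite ratios offset each other in that shared fit.

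The adaptors differed between the experiments more than within them. Lat, the membrane scaffold that Zap70 phosphorylates (chromosome 7, 133507346 to 133513057, mm9), was at 265 CPM in the control for DMAT, 228 with DMAT, 329 in the control for CX4945 and 328 with CX4945. The DMAT library was the lowest, with a ratio of 0.859 to its control (0.769 to 0.96), and the CX4945 pair was level at 0.998 (0.898 to 1.11). The control for CX4945 was above the control for DMAT by log2 0.31. Lcp2, the cytosolic partner of LAT (chromosome 11, 33946920 to 33992295), was at 294 CPM in the control for DMAT, 276 with DMAT, 432 in the control for CX4945 and 540 with CX4945. Both libraries of the CX4945 experiment were above both of the DMAT experiment. Within the pairs the ratio was 0.938 with DMAT (0.847 to 1.04) and 1.25 with CX4945 (1.15 to 1.36), and the controls differed by log2 0.55, more than either pair. Neither adaptor passed the joint test (log2 fold changes -0.11 and 0.12, edgeR adjusted p = 0.901 and 0.895).

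Lcp2 had 46.1% unique reads, and each of its unique exon reads (391, 329, 436 and 507 in the order above) crossed a junction between exons. The files thus list no unique Lcp2 read that lies inside a single exon. With unique reads alone the log2 ratios were -0.13 with DMAT, 0.39 with CX4945 and 0.42 between the controls, the same directions as with total reads. Per read of Lat there were 1.11 Lcp2 reads in the control for DMAT (1.0 to 1.23), 1.21 with DMAT (1.08 to 1.36), 1.31 in the control for CX4945 (1.19 to 1.45) and 1.65 with CX4945 (1.49 to 1.81). The interval of the CX4945 library lay above those of the other 3.

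Counted by interval, 4 of the 9 genes were off 1 with DMAT (Cd3g and Cd247 above, Lck and Lat below), against 18.9% of all genes (9.89% below and the rest above), and 26.7% of the 3329 genes with at least as many reads as the lowest of the 9. With CX4945 it was 5 of 9, all above (Cd3e, Cd247, Lck, Zap70 and Lcp2), against 14.8% of all genes (7.06% above and 7.75% below) and 23.8% of the 2663 as well covered. Between the controls it was also 5 of 9 (Cd3g, Zap70, Lat and Lcp2 above, Cd247 below), against 18.6% of all genes (8.87% above and 9.77% below) and 29.0% of the 3256 as well covered. The 9 genes are few and well covered, and the control libraries alone gave as many such genes as either inhibitor. In the joint test 1 of 9 (Cd247, higher) had an unadjusted p under 0.05, against 7.08% of genes (2.86% higher and 4.23% lower). DESeq2 with the same design called 0 of 9, with 0 at an unadjusted p under 0.05.

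Levels per length can be compared between the genes, as CPM per kilobase of annotated exon length. Over the 4 libraries the order was Lat (232 ± 40.1, SD, n = 4), Lck (136 ± 14.8), Cd3e (101 ± 11.8), Zap70 (88.8 ± 14.1), Lcp2 (86.5 ± 27.8), Cd3g (79.7 ± 14.9), Cd3d (77.2 ± 3.57), Cd4 (65.4 ± 2.72) and Cd247 (36.4 ± 4.50). The 4 libraries are of 4 different groups, so this SD is their spread and not a replicate error. Lat stood above Lck in every library, and Cd247 was the lowest of the 9 in every library. Lck was above Cd3e, and Cd3e above Zap70, within each of the 4 libraries, although their ranges over the libraries overlapped. The order of Zap70, Lcp2, Cd3g and Cd3d differed between libraries. Only 46.1% of the Lcp2 reads were unique, so its place in this order rests largely on reads that were not unique. The zeta chain's exon length of 5372 bases covers 7 annotated transcripts, and a length that counts exons these cells do not use lowers the level per length.

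**Figure D3:**
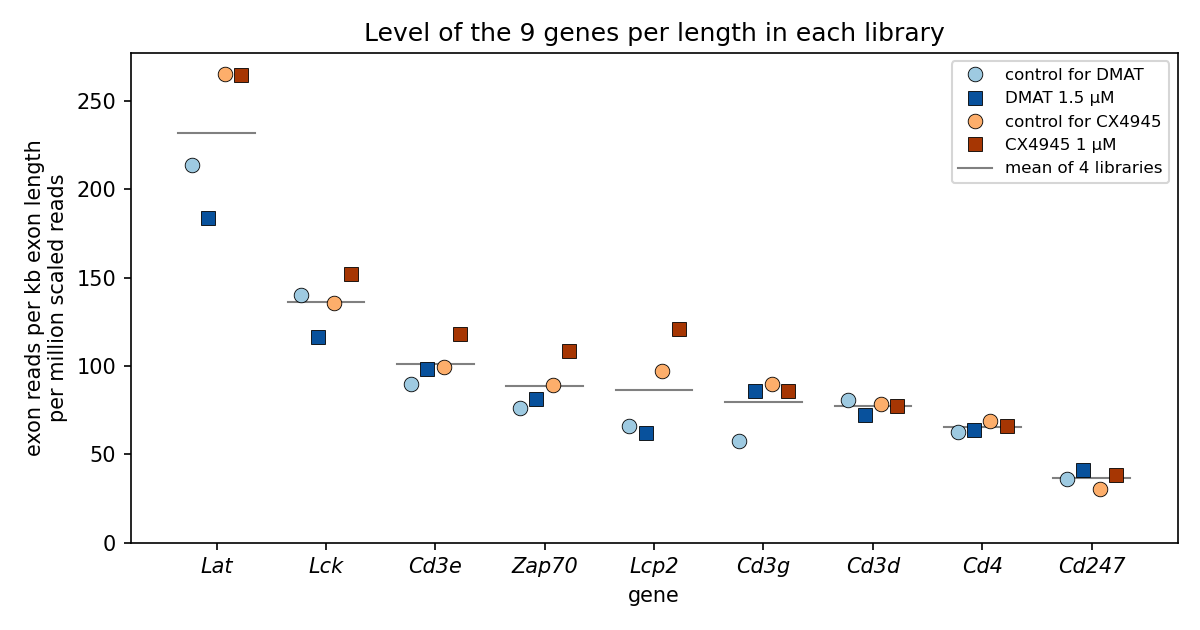
Level per length (y axis, from 0, CPM per kilobase of exon length) of the 9 genes, ordered by the mean of the 4 libraries (grey line), with 1 point per library. Lat ranges from 184 to 265, Cd247 from 30.5 to 41.2, and the 2 experiments separate in Lat and Lcp2.

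The wider pathway was read from a list of 88 other genes grouped by role, of which 86 were in the tables and 83 in the joint test. Of these 83, 1 rose, 1 fell and 81 did not pass, against 0.177% and 0.353% of all genes. At an unadjusted p under 0.05 there were 17 of 83 (12 higher and 5 lower), against 7.08% of all genes, and this fell to 7 without the pair term and 3 with DESeq2. None of the 82 genes with enough reads was 2-fold with either inhibitor. The median log2 ratio was 0.11 with DMAT, 0.05 with CX4945 and 0.12 between the controls. With DMAT 58 of the 82 were higher and 24 lower than in the control, and with CX4945 48 and 34. Over all genes the median log2 ratio was 0.00 with DMAT and -0.004 with CX4945. Between the controls (control for CX4945 over control for DMAT) 55 of 83 were higher and 28 lower. Of these, 3 were 2-fold higher, against 0.983% of all genes. Both this ratio and the DMAT ratio have the control for DMAT as denominator, so their directions are not independent. Both inhibitor libraries lay above both controls for 13 of the 83, against 14.2% of all genes, and below both for 7, against 15.5%.

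Themis, a T cell adaptor that binds the LAT complex through Grb2 and tunes receptor signals, was the gene that fell. It lies on chromosome 10 at 28388166 to 28603624 (mm9) and was at 117 CPM in the control for DMAT, 64.5 with DMAT, 127 in the control for CX4945 and 71.3 with CX4945. Both inhibitor libraries were far below both controls, and the controls were close to each other (log2 0.12). Relative to control it was lower by 1.81-fold in the DMAT library (1.5 to 2.2) and by 1.78-fold in the CX4945 library (1.46 to 2.19). The joint log2 fold change was -0.85 ± 0.13 (SE, edgeR adjusted p = 0.0069). Its reads were 60.2% unique, and with unique reads the joint value was -0.98 (adjusted p = 0.000848). Without the pair term the size was also -0.85 and did not pass (adjusted p = 0.563), nor did it with DESeq2 (-0.84, 0.9999). In unblocked fits that left out 1 library it passed without DMAT (0.0361) and without CX4945 (0.00762), and did not pass without the control for DMAT (0.9998) or the control for CX4945 (0.999).

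Dgka, a diacylglycerol kinase that dampens the Ras branch after receptor engagement, was the gene that rose (chromosome 10, 128157197 to 128181112, mm9). Its CPM was 191 in the control for DMAT, 239 with DMAT, 182 in the control for CX4945 and 282 with CX4945, so both inhibitor libraries stood above both controls. The ratios were 1.25 (1.11 to 1.41) and 1.55 (1.36 to 1.76), and the joint log2 fold change of 0.47 ± 0.10 (SE) passed narrowly (edgeR adjusted p = 0.0494). It did not pass without the pair term or with DESeq2 (adjusted p = 0.9998 and 0.9999), nor in unblocked fits without the control for DMAT, the control for CX4945 or CX4945 (0.9998, 0.999 and 0.44). In the unblocked fit without DMAT it passed (0.0469).

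**Figure D4:**
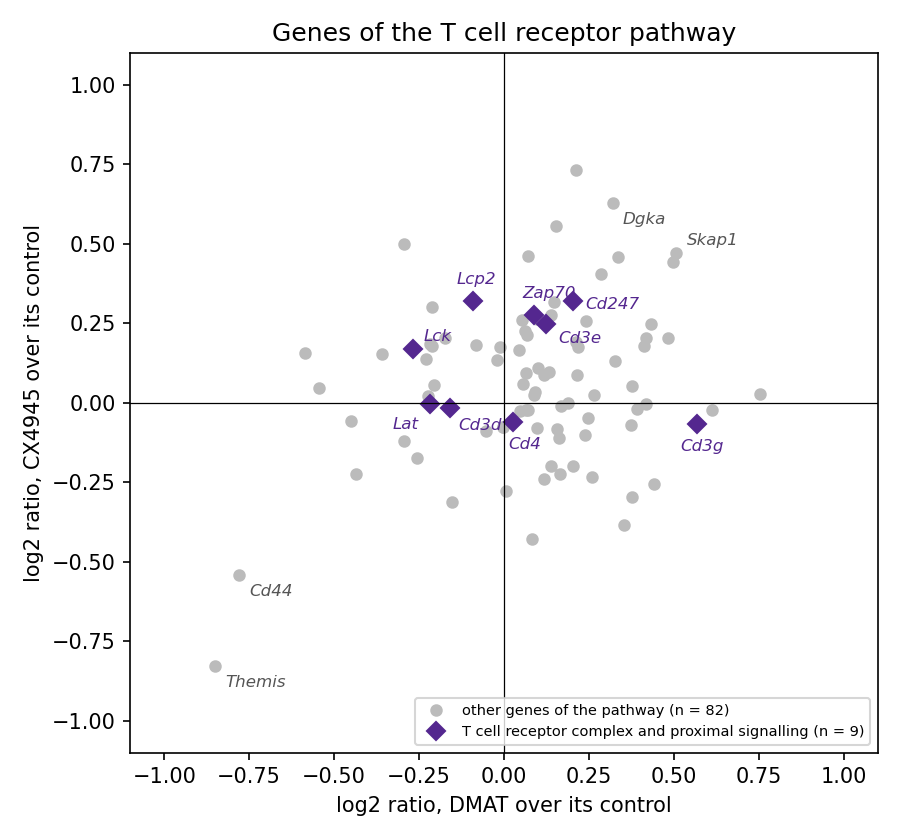
Log2 ratio with DMAT (x axis) against that with CX4945 (y axis), each over its own control, for the 9 genes (purple diamonds) and 82 other genes of the pathway (grey), with 1 library per group. Themis, at -0.85 and -0.83, and Cd44, at -0.78 and -0.54, are low on both axes, while the 9 genes lie between -0.27 and 0.57.

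By role, the receptor and coreceptor genes had 0 of 8 passing, with a median log2 ratio of 0.32 with DMAT, 0.00 with CX4945 and 0.02 between the controls. All 8 were higher with DMAT than in its control, and 7 had an interval above 1, where 18.9% of all genes were off 1 in either direction. With CX4945 4 were higher and 4 lower, with 1 interval above 1, against 7.06% of all genes. Between the controls 2 intervals lay above 1 and 2 below, against 8.87% and 9.77% of all genes. The alpha chain constant region Trac was at 122 CPM in the control for DMAT, 147 with DMAT, 150 in the control for CX4945 and 153 with CX4945. As with Cd3g, the control for DMAT was the low library. The beta chain constant regions Trbc1 and Trbc2 are near-identical copies, with 40.0% and 41.3% unique reads, so the split between them is uncertain. Trac, Trbc1 and Trbc2 together were 1.35-fold over control with DMAT (1.26 to 1.45), 1.07-fold with CX4945 (0.983 to 1.16) and 1.03-fold between the controls (0.949 to 1.11).

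The other kinases had 0 of 6 passing, and over the 5 with enough reads the median log2 ratio was 0.07 with DMAT and 0.18 with CX4945. Csk, which inactivates Lck, had log2 ratios of 0.22 and 0.18 (edgeR adjusted p = 0.668), and its controls differed by 0.21. Among the 14 adaptors and enzymes at LAT, Themis alone passed, with a median of 0.08 for DMAT and 0.17 for CX4945. Skap1, an adaptor that links the receptor to integrins, stood at log2 ratios of 0.51 and 0.47 (adjusted p = 0.26), but its controls differed by 0.58. Trac, Trbc1, Trbc2 and Skap1 are named after their values were seen, as is Cd44 below.

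Among 13 inhibitors of the pathway Dgka alone passed, with medians of 0.12 and 0.03. The Ras and MAP kinase genes (0 of 9) and the calcium and NFAT genes (0 of 13) had medians of 0.06 and 0.24 for DMAT, and 0.06 and 0.09 for CX4945. In the calcium and NFAT group the controls differed by a median of 0.21. Of 15 genes induced by receptor engagement 0 passed, and the medians were 0.06 and 0.00. At an unadjusted p under 0.05 (edgeR) there were 7, 3 higher and 4 lower, against 7.08% of all genes (2.86% higher and 4.23% lower). Over the whole pathway list such calls fell from 17 to 7 without the pair term and to 3 with DESeq2. Cd44, an adhesion receptor of activated T cells, was at 64.1 CPM in the control for DMAT, 37.0 with DMAT, 70.8 in the control for CX4945 and 48.3 with CX4945, low in both inhibitor libraries, and did not pass (joint log2 fold change -0.67 ± 0.16 SE, edgeR adjusted p = 0.0924).

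The genes of the pathway list whose pattern was nearest to the mean of the 4 CD3 chains were Ptprc, Csk, Vav1 and Orai1. Nearness was the root mean square difference of log2 CPM over the 4 libraries, each gene centred on its own mean, and was 0.0484, 0.0502, 0.0533 and 0.0545 among the 76 genes with at least 200 reads. The mean of the chains itself moved little, from -0.14 in the control for DMAT to 0.11 with CX4945, and 4 libraries cannot separate likeness from a shared flat pattern.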

How the data were processed

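RNA sequencing was available for 4 libraries, 1 in each of 4 groups assigned from the titles. Libraries were made from total RNA with a TruSeq RNA kit, per the labels' protocols, and the genome build was mm9 with CASAVA 1.8.2 used, per the submitters' processing notes. The aligner is not given in the sources used here, nor are the annotation, strand or counting rule. The deposited values used were raw counts of total exon reads per feature, as the authors supplied them; how reads with several matches were counted is not stated. Unique exon reads and exon-exon reads were used as checks.

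Counts were scaled with TMM (edgeR 4.0.16, R 4.3.3). Per pair, ratios carry exact conditional intervals and no p-value. Both experiments were fitted together by edgeR's quasi-likelihood test with the pair as a block over 9629 genes that passed filterByExpr (minimum count 10), with Benjamini-Hochberg adjustment and a threshold of 0.05. This fit has 1 residual degree of freedom per gene, and its SE is the absolute log2 fold change divided by the square root of F. The pairing comes from the titles: the log2 difference between the control libraries and that between the inhibitor libraries had r = 0.425 across 6969 genes with 200 or more reads, and genes are not replicates. Alternatives were DESeq2 1.42.0, other scalings, unique reads, other controls, no block and leaving out each library. No library was a duplicate (chi-square per degree of freedom 2.56 to 5.63). Scripts were tested on simulated data.

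The 9 genes, the lists and the tests were chosen with earlier results of these data known. All 9 are named. Of the pathway list, genes past the joint test, genes 2-fold with either inhibitor and the 4 nearest in pattern to the CD3 chains are named, plus a few per role chosen after their values were seen. Of 88 pathway symbols, Tcra and Tcrb-J were not matched. Some genes and 1 group of that list are counted in its totals and not reported here. Promoter windows are from RefSeq (GRCm38.p6), used for sequence only; their downstream 50 bases were not used.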

Additional observations from a re-analysis of the deposited data

Results flagged for a closer look

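Lck was lower with DMAT (log2 ratio -0.27) and higher with CX4945 (0.17), each over its own control and each with a counting interval that did not hold 1. With the control for DMAT in place of its own, the CX4945 value was 0.12 with an interval of -0.009 to 0.25, which held no change. This is a difference between single libraries, and the difference between the inhibitors was not tested.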

How the results depend on the processing

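Some alternatives were scaling by DESeq2 size factors or total counts, unique reads, a prior count of 0.5 and a test without the low-count filter. None of these moved an inhibitor ratio of the 9 genes outside its counting interval. They changed no call of these ratios or of the joint test for the 9. The sign of Lat with CX4945 (log2 -0.003) did turn, to 0.005 with DESeq2 size factors and 0.008 with unique reads. The counts by sign depend on it. Between the controls, the Cd247 interval with unique reads came to hold no change (log2 -0.43 to 0.0026). The choice of control did change inhibitor ratios. With the other inhibitor's control the log2 ratio of Cd3g with DMAT turned to -0.069, and with CX4945 the intervals of Cd247 (0.095) and Lck (0.12) came to hold no change. Lcp2 moved to -0.64 with DMAT and 0.87 with CX4945, and Lat to -0.53 and 0.31. Cd3g with CX4945 moved to 0.57. In the same setting 1 pathway gene was 2-fold lower with DMAT and 8 were 2-fold higher with CX4945, in place of 0 and 0. The share of all genes past 2-fold in that setting was not counted, so these counts have no background. In the joint test 0 of the 9 genes passed under each alternative run. The count over all genes was 51, and it became 81 with DESeq2 size factors, 101 with total counts, 3 with DESeq2 and 1 with no replicate block. Leaving out 1 library at a time, in fits without the block that assume the lone library varies like the others, gave 1 without either control, 77 without DMAT and 89 without CX4945, and 0, 5 and 4 pathway genes in place of 2. Pathway genes past the test were 0 with DESeq2 and 0 with no replicate block. In the fits that left out a library the joint log2 fold change crossed 0 for 6 genes, none of which passed, and the cause was not tested. It ran from -0.068 to 0.57 for Cd3g, turning without the control for DMAT. It ran from -0.085 to 0.049 for Cd4, with 0.0011 without DMAT, and from -0.24 to 0.14 for Lck, turning without DMAT. Zap70 ran from -0.022, without CX4945, to 0.38. Lat ran from -0.38 to 0.14, with 0.065 without the control for CX4945. Lcp2 ran from -0.39 to 0.57, with -0.085 without the control for DMAT. It kept its sign for Cd3d, Cd3e, Cd247, Themis and Dgka. With 1 library per group, a difference of any size within a pair cannot be told apart from variation between single libraries.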
